A study of Sus scrofa with 26 samples.

Results

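The breed difference in subcutaneous adipose tissue (SCAT) of Large White (LW) and Creole pigs at thermoneutrality (TN) was described across all genes of a pig expression array. The comparison took the 4 LW TN and the 3 Creole TN arrays, 7 of the 26 arrays of the series, by breed and temperature in the labels. Every array held the RNA of 1 castrated male pig, hybridised in 1 colour, and the pigs had been raised at an experimental unit in Guadeloupe. LW TN and Creole TN pigs were kept at 24 °C and slaughtered before any heat exposure. Crossbred pigs of the same temperature (F1 TN, 4 arrays) and heat-exposed pigs of the parental breeds (LW HS and Creole HS, 5 arrays each, other animals) give levels beside the comparison. All 26 arrays, with 5 of heat-exposed crossbred pigs (F1 HS), entered the normalization, the filter and the estimate of spread behind the p-values. The heat-stressed (HS) groups carry a label of 30 °C, whereas the protocol in the labels gives 32 °C for 5 days. The labels give no age, litter, pen, parents or slaughter day. In the study, each breed had 3 litters, each pen held 1 breed, and each litter gave pigs to both temperatures. The 4 LW TN pigs therefore include littermates, and the HS pigs of a breed come from the same litters as its TN pigs. Litter and pen were not modelled, and differences between pens cannot be told apart from breed here. P-values measure the spread between these animals.

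LW is a lean, fast-growing white commercial breed, and the Creole pig of the Caribbean is a local, fatter and slower-growing breed. Subcutaneous fat of the pig is a main site of fatty acid synthesis from glucose, and it stores these fatty acids as triglycerides in adipocytes. The tissue also holds fibroblasts, vessels, nerves and immune cells, and backfat lies between skin and muscle. In such bulk RNA, fewer cells of a type and less RNA per cell cannot be told apart.

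Levels are log2 quantile-normalized spot intensities, and a difference is LW minus Creole on that log2 scale. A probe was called when its limma test had a Benjamini-Hochberg adjusted p under 0.05 over the 44703 probes tested. At TN, 140 of these probes were called (0.313%), 71 higher in LW (0.159%) and 69 lower (0.154%). With 1 probe per gene, 24 of 8879 named genes were called (0.27%), 9 higher in LW (0.101%) and 15 lower (0.169%). At an unadjusted p under 0.05 there were 6784 probes (15.2%), and of the genes 606 were higher (6.83%) and 730 lower (8.22%), 15% in all. The 4 LW TN and 3 Creole TN arrays did not overlap on 6688 probes (15%), with LW above on 7.36% and below on 7.6%, and on 15.1% of the genes, with LW above on 6.44% and below on 8.68%. They did not overlap on any of the 140 called probes. The median absolute difference was 0.85 over the called probes and 0.14 over all probes tested. Arrays had 69.7 to 73.8% of spots well above background, with a mean of 71.7% ± 1.56 (SD, n = 4) in LW TN and 71.3% ± 1.69 (SD, n = 3) in Creole TN (two-sided exact permutation test, p = 0.743, smallest possible 0.0286).

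KIT, the receptor tyrosine kinase for stem cell factor, was among the genes with the highest LW levels relative to Creole. It is known for its role in pigment cells and mast cells, and in the pig for the dominant white coat locus. All 5 tested KIT probes, which hold 4 distinct sequences in 3 separate stretches, were called. The sequences below are shown because they share 57 bases, given in capitals, and so measure nearly the same stretch of KIT with separate spots:
A_72_P180731: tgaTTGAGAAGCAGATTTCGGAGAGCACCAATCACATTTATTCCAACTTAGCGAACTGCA
O299: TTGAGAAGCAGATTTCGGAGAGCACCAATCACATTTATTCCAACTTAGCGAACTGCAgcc

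On the brightest KIT probe, the LW TN arrays read 11.74, 11.86, 12.71 and 11.67. The Creole TN arrays read 10.14, 9.75 and 10.78. Every LW TN array thus lay above every Creole TN array. The difference was 1.77 ± 0.29 (SE), a 3.40-fold higher level in LW (limma, adjusted p = 0.0095). Over the 5 probes the difference ran from 1.15 to 1.83, with adjusted p from 0.00849 to 0.0377. The F1 TN arrays read 11.55, 11.66, 11.01 and 11.36, above all 3 Creole TN arrays and below all 4 LW TN arrays. In the other animals, LW HS read 12.11 at the lowest, 12.31 at the median and 12.60 at the highest, against 9.68, 10.18 and 10.79 in Creole HS. The KIT gap under HS was 2.06 (limma, adjusted p = 8.36e-05). Within the 2 slides that held both breeds, the KIT difference was 1.98 and 1.07. Of 9 mast cell markers, 3 were tested and none was called, with differences of -0.12 for MS4A2, -0.46 for HDC and 0.05 for GATA2. Of 8 melanocyte markers, 3 were tested and none was called, from -0.78 for SLC45A2 to -0.02 for DCT. Under HS, MS4A2 (-0.40), HDC (-0.73) and SLC45A2 (-0.84) were called lower in LW (limma, adjusted p of 0.0396, 0.00885 and 0.0313). Both marker lists were chosen after the KIT values were seen.

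**Figure D1:**
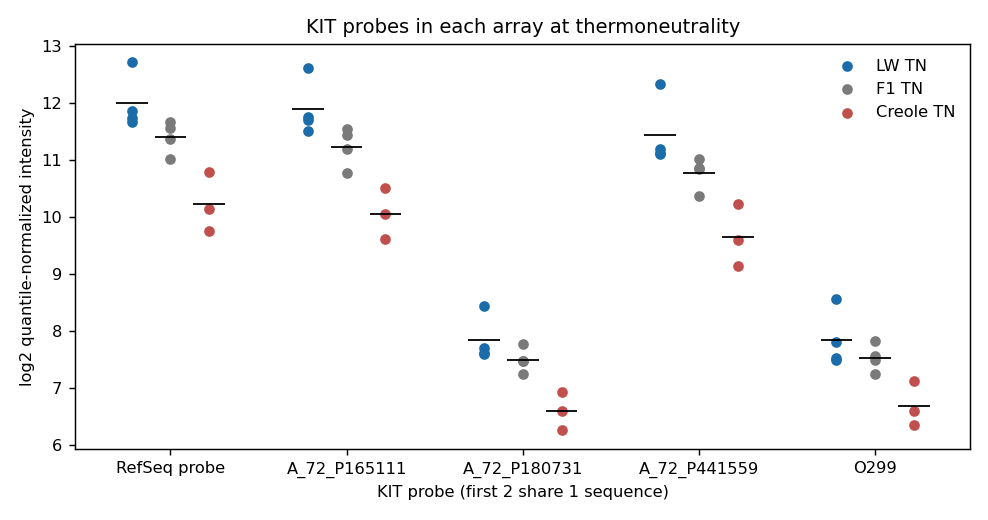
Level of each tested KIT probe (log2 quantile-normalized intensity) in each TN array, with 1 point per pig and a line at the group mean; the probes are set apart because levels of different probes are not comparable. On all 5 probes the 4 LW TN points lie above the 3 Creole TN points, and the F1 TN points also lie above all 3 Creole TN points.

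GSN encodes gelsolin, which severs and caps actin filaments. The brightest GSN probe read 17.73, 17.45, 17.45 and 17.56 in LW TN, and 17.06, 16.07 and 16.67 in Creole TN. The groups did not overlap, and the difference was 0.94 ± 0.17 (SE; limma, adjusted p = 0.0133). The 4 GSN probes gave 0.94 to 1.03, of which 1 was called, and 3 of the 4 passed the threshold under HS, where the difference ran from 0.64 to 0.73. The lowest GSN level came from Creole TN 2, whose score over the fibroblast and matrix markers was also the lowest of the 7 arrays (-0.82). Without that array the GSN difference was 0.68 (adjusted p = 0.0967). The share of that marker difference in the GSN value was not tested. The GSN probes below are shown because A_72_P444582 was called while the 2 that overlap by 21 bases (capitals) gave 1.01 and 0.97 without a call:
A_72_P444582: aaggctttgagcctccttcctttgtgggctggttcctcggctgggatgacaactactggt
A_72_P226167: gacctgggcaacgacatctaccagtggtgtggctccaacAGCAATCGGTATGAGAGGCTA
A_72_P539908: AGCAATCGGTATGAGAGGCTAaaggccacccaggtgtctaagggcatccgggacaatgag

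C1D, a nuclear protein bound to the RNA exosome, had the smallest adjusted p of the named genes (0.00144). Its levels were 9.90, 9.95, 9.80 and 9.98 in LW TN and 8.86, 8.93 and 8.90 in Creole TN. The groups were tight and far apart, with a difference of 1.01 ± 0.13 (SE), and the F1 TN arrays, at 9.42 to 10.17, lay above all Creole TN arrays. The gap was 1.11 under HS (limma, adjusted p = 1.18e-05). The other C1D probe gave 0.06 (adjusted p = 0.817), so the probes of this gene did not give the same difference.

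VMO1, a secreted protein named after the outer layer of the egg vitelline membrane, was among the genes with the lowest LW levels relative to Creole. Its only tested probe is shown because the whole VMO1 result rests on it:
A_72_P145146: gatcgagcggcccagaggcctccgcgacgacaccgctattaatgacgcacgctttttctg

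VMO1 read 6.0, 5.81, 6.03 and 6.16 in LW TN, and 9.34, 9.52 and 9.50 in Creole TN. The difference was -3.45 ± 0.61 (SE), a 10.9-fold lower level in LW (limma, adjusted p = 0.0125). F1 TN pigs were spread between the parental breeds, at 6.89, 7.77, 9.12 and 6.85. Under HS the difference was -3.14, with LW HS from 5.81 to 7.54 and Creole HS from 8.33 to 9.80.

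C1GALT1 is the enzyme that makes the core 1 structure of O-linked glycans. Its probe was not well above background on any LW TN array, where it read 5.49, 5.62, 5.32 and 5.48, and it read 8.34, 9.14 and 8.19 in Creole TN. A probe at background gives only a bound, here the Creole mean over the mean of the higher of each LW array's background limit and the probe's own signal. On that basis C1GALT1 was at least 8.47-fold higher in Creole TN (limma, adjusted p = 0.011). The F1 TN arrays, at 5.28 to 5.51, sat at the LW TN level and not between the breeds. Under HS, LW read 5.21 to 5.35 and Creole 8.33 to 9.73.

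The other genes called higher in LW differed by 0.60 to 1.5. PDYN, the opioid precursor prodynorphin, differed by 1.5 (adjusted p = 0.0344), with LW TN at 6.58 to 8.09 and Creole TN at 5.6 to 6.05. The other tested PDYN sequence differed by only 0.14, so the size of this difference depended on the probe. Under HS the PDYN difference was 0.46 without a call (limma, adjusted p = 0.293). ANXA8, a calcium-dependent membrane-binding annexin, differed by 1.41 (adjusted p = 0.0325) and 0.89 on its second probe. PPGRP-S, a short peptidoglycan recognition protein that binds bacterial cell walls, differed by 1.13 (adjusted p = 0.0301) at TN and by 0.00 under HS. That gap change of -1.13 had an adjusted p of 0.9997, so PPGRP-S was not shown to differ between temperatures. PPP6R3, a regulatory subunit of protein phosphatase 6, differed by 0.83, and the uncharacterised LOC100524282 by 0.66 (adjusted p = 0.0299). The other LOC100524282 probe differed by 4.90 without a call (adjusted p = 0.0693), with LW TN at 14.30 to 14.43 and Creole TN at 7.31, 7.85 and 13.28, so the size of this difference depended on the probe. LIPC, the hepatic lipase, differed by 0.60 (adjusted p = 0.0107) on a probe that was not well above background in any Creole TN array, which makes LW at least 1.52-fold higher. LIPC was low in both groups, at 6.04 to 6.34 against 5.53 to 5.63.

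The other genes called lower in LW had roles of several kinds. PGR, the progesterone receptor, differed by -0.96 (adjusted p = 0.0344), with LW TN at 5.71 to 6.10 and Creole TN at 6.39 to 7.18. TMEM254 differed by -0.90, the axonemal dynein heavy chain gene DNAH8 by -0.82, the ubiquitin ligase gene LNX2 by -0.80 and the spermadhesin gene AWN by -0.78. AWN was well above background on 1 of the 4 LW TN arrays. Its difference was -0.07 and -1.11 within the 2 slides that held both breeds, and -0.17 under HS (limma, adjusted p = 0.461). PEX2, a peroxisome assembly protein, differed by -0.73 (adjusted p = 0.0135), whereas 1 of its other 2 probes gave -0.56 and the other 0.01. ATPAF1, an assembly factor of the mitochondrial ATP synthase, differed by -0.68 (adjusted p = 0.0488). VPS26B of the retromer differed by -0.59, the calcineurin subunit gene PPP3R1 by -0.55 and POLR1D, a subunit shared by RNA polymerases I and III, by -0.54. Outside the limit of 12 genes in each direction were NIT1 (-0.52), RDH14 (-0.50) and FYCO1 (-0.38). In 8 of the 21 named genes (KIT, PDYN, ANXA8, C1D, GSN, LOC100524282, AWN and VPS26B) most of the other tested sequences of the gene differed in the same direction. PEX2 had other sequences without such a majority, and 12 named genes had none. Only the direction was counted here, and the other sequence of C1D differed by 0.06 and that of PDYN by 0.14.

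**Figure D2:**
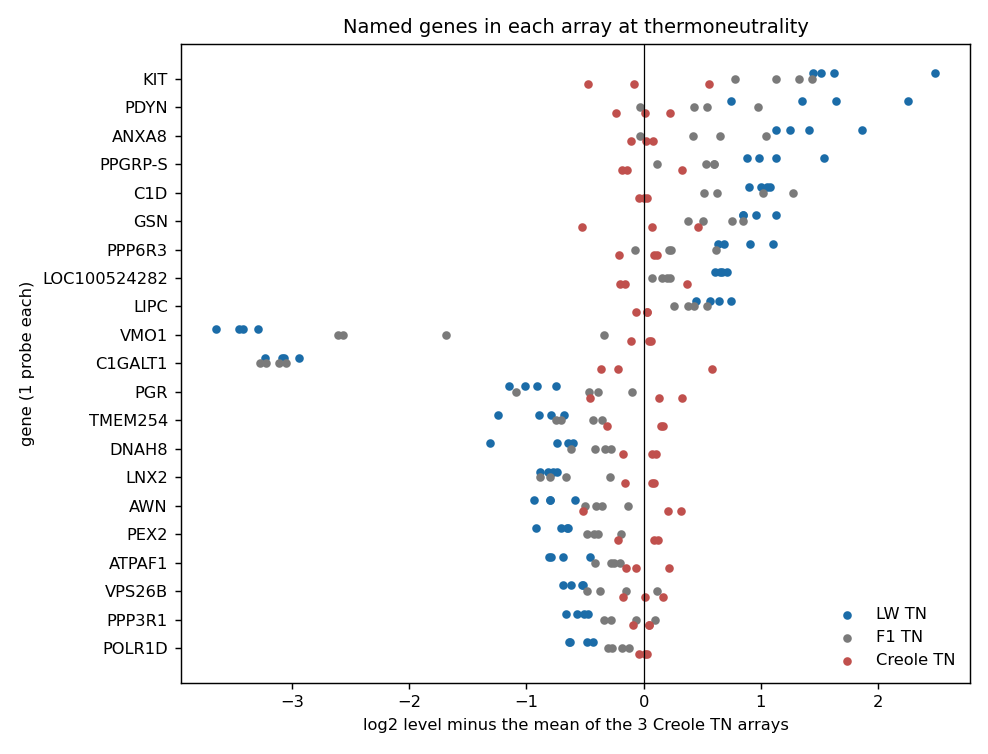
Level of each named gene in every TN array, as log2 minus the mean of the 3 Creole TN arrays, with 1 point per pig and 1 probe per gene. The LW TN and Creole TN points do not overlap for any gene shown. VMO1 reaches -3.45 at the mean. C1GALT1 is drawn at -3.08, where LW TN was at background and only the bound in the text holds. F1 TN lies with LW TN for C1GALT1.

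A further 21 genes were called only on a probe other than the brightest, and their probes did not all move alike. PRDX6, a peroxiredoxin that reduces peroxides, was lower in LW on all 9 of its probes, by -0.31 to -0.74, and 3 were called. LW TN and Creole TN did not overlap on 8 of the 9 PRDX6 probes. On its most different probe, A_72_P633743, LW TN read 11.13, 11.44, 11.26 and 11.13, and Creole TN 11.88, 11.87 and 12.20 (difference -0.74, adjusted p = 0.021). The PRDX6 probe with the largest difference is shown with a pair that share 38 bases, in capitals, and gave -0.67 and -0.72, the second of them called:
A_72_P633743: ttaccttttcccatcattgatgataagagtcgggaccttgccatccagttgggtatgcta
A_72_P575489: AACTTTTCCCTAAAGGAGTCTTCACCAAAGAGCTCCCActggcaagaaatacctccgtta
A_72_P665743: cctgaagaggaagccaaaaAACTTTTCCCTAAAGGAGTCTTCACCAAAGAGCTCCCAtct

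COL6A3, a chain of collagen VI, was higher in LW on all 9 of its probes, by 0.35 to 0.98, with 1 called. RPL14 of the large ribosomal subunit was higher on all 6, by 0.48 to 0.73, with 1 called, and the secreted fibrinogen-like gene FGL2 on all 7, by 0.35 to 0.70, with 1 called. OAZ3, an antizyme of ornithine decarboxylase, was higher on all 3 probes, by 1.40 to 2.27. CYP3A46, a cytochrome P450 of the xenobiotic-metabolising CYP3A family, was higher on all 3, by 1.51 to 1.96, with F1 TN 3 inside the LW TN range on each and the other 3 F1 TN arrays below every LW TN array. Under HS, COL6A3 differed by 0.31 to 0.97 with 1 probe called. OAZ3 (0.81 to 1.22), CYP3A46 (0.18 to 0.65), RPL14 (0.02 to 0.39) and FGL2 (0.15 to 0.35) had 0 probes called under HS. No probe of these genes was called for the change between temperatures.

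Some genes had probes that disagreed. PDCD4, a translation inhibitor, had 2 probes called higher in LW (0.69 each) and 1 called lower (-1.86), on which LW TN read 7.69 to 8.39 and Creole TN 9.66 to 9.95. SELENOF, a selenoprotein of the endoplasmic reticulum, had 1 probe at -4.50 (adjusted p = 0.0344), with LW TN at 5.52 to 5.85, well above background on 2 of 4 arrays, and Creole TN at 9.94 to 10.53. Its other 5 probes differed by -0.03 to -0.20. F1 TN split on that SELENOF probe, with 5.46 and 5.46 on 2 arrays and 9.25 and 9.80 on the others. HSD17B4, a peroxisomal enzyme of fatty acid oxidation, had a probe at -1.47 (adjusted p = 0.0107) and its other 2 at -0.25 and -0.37.

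Of the 140 called probes, 86 have no gene name here. Among them, A_72_P788198 read 5.58, 5.35, 5.51 and 5.82 in LW TN, and 12.77, 11.85 and 11.68 in Creole TN, a fitted difference of -6.53 (limma, adjusted p = 0.0179), with 1 of the 4 LW TN arrays well above background. F1 TN read 5.15 to 5.71 on it, the LW level, and Creole HS spread from 6.35 to 12.20. A_72_P742057, which the files give the same transcript as A_72_P788198, differed by -3.03. In the other direction, A_72_P097651 read 8.85 to 9.23 in LW TN and 5.82 to 6.35 in Creole TN, a difference of 3.07 (adjusted p = 0.000148), and F1 TN read 8.42 to 9.24.

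The F1 TN mean lay between both breed means on 134 of the 140 called probes (95.7%), against 40.3% of all probes tested, in a set whose parental groups are apart by choice.

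The HS levels are from other pigs than the TN levels, but from the same litters, and the tests at both temperatures share 1 estimate of spread. Of the 140 probes called at TN, 132 (94.3%) had the same sign of LW minus Creole under HS, against 69.0% of all probes tested. The median difference along the TN sign was 0.85 at TN and 0.54 under HS. Under HS, with 5 pigs per breed, 2526 probes were called (5.65%), and 6.28% of the genes. The 84 probes called in both with the same sign made up 60% of the TN calls and 3.33% of the HS calls. A test of the change in the breed gap between HS and TN called 1 probe of 44703 (0.00224%), and 1908 had an unadjusted p under 0.05 (4.27%). The called probe, A_72_P123631, has no gene name here. It read 7.62, 7.75, 7.91 and 7.62 in LW TN against 6.58, 6.62 and 6.60 in Creole TN, and 6.43 to 6.75 in F1 TN. Under HS, both breeds lay together, with LW at 6.26 to 6.85 and Creole at 6.45 to 6.84. The gap was 1.13 at TN and -0.06 under HS, a change of -1.19 (limma, adjusted p = 0.00215). The named genes with the smallest p for this change were AKTIP, MIF4GD, CLIC1, PPGRP-S and UACA, with changes of -0.59, 0.36, 0.72, -1.13 and 0.49, and none was called (adjusted p of 0.626 or more).

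**Figure D3:**
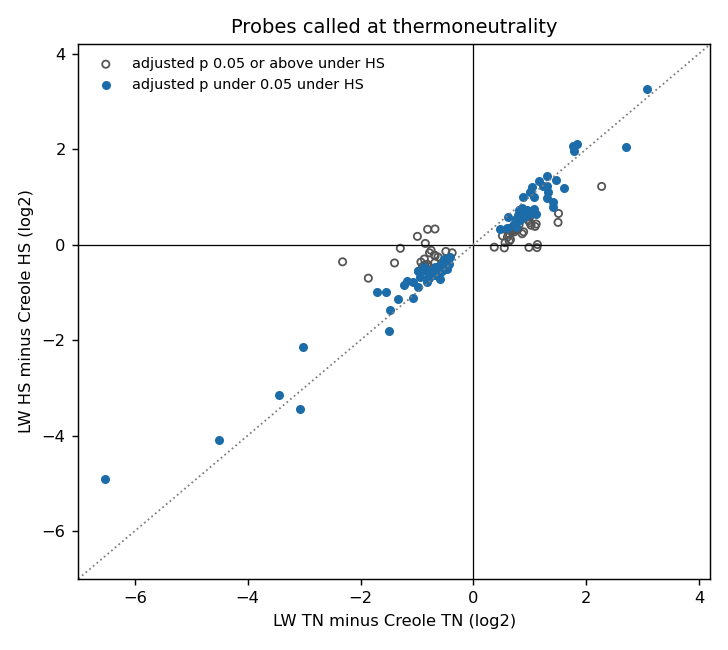
LW minus Creole difference (log2) of the 140 probes called at TN, on the horizontal axis at TN and on the vertical axis under HS, with 1 point per probe, filled where the HS difference also had an adjusted p under 0.05; the dotted line marks equal differences. Of the points, 132 keep their sign under HS, and those near 0 on the vertical axis have no HS difference of the TN size.

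With 1 probe per gene, gene lists for the tissue gave no called member at TN. The listed genes COL6A3, HSD17B4, PRDX6 and RPL14 had another probe called, as given above. Over 39 lists with 803 genes, 625 were tested and 0 were called (limma), while 131 (21.0%) had an unadjusted p under 0.05, against 15% of all genes tested. The smallest adjusted p of a listed gene was 0.0624, for SUCLG2 of the TCA cycle (-0.58). Over all genes the median difference was -0.01.

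In fatty acid synthesis, NADPH supply and triglyceride synthesis, more genes were lower than higher in LW, with 0 called. The lists as sets were not tested. Of 14 measured genes of fatty acid synthesis and desaturation, 12 were lower and 0 called, with a median of -0.32. ACLY, which makes cytosolic acetyl-CoA, read 17.81, 17.54, 17.75 and 17.74 in LW TN and 18.41, 18.52 and 18.21 in Creole TN, a difference of -0.67 (adjusted p = 0.595). ACACA, the acetyl-CoA carboxylase, read 9.46 to 9.83 against 10.12 to 11.14, a difference of -0.86. Both sets of arrays were apart, but ACLY varied widely in the other groups that share the estimate of spread, from 16.53 to 18.43 in F1 TN and from 15.65 to 18.27 in Creole HS. Fitted on the 7 arrays of LW TN and Creole TN alone, ACLY was called (-0.67, limma, adjusted p = 0.0476). The other ACLY probes were also lower in LW TN without overlap, and not called in the main fit. On A_72_P447091, LW TN read 15.91 to 16.20 and Creole TN 16.72 to 17.43, and on A_72_P710913 9.41 to 9.71 against 10.33 to 11.06. Of 8 NADPH-supplying enzymes, 6 were lower with a median of -0.18, among them ME1 (-0.68). Triglyceride synthesis and lipid droplet genes were lower in 15 of 17 with a median of -0.09, among them GPAM (-0.02) and AGPAT2 (-0.30). Fatty acid uptake had a median of -0.02 over 12 genes, with LPL at -0.44 and CD36 at -0.13. Lipolysis had a median of -0.03 over 12, with PNPLA2 at -0.02 and LIPE at 0.05. In cholesterol synthesis, 8 of 16 were lower, with a median of -0.04, with the mevalonate kinase MVK at -0.27.

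The mitochondrial lists were also mostly lower in LW with 0 called. All 20 skeletal muscle markers were lower in LW TN as well (median -1.85), and with the mean level of these markers in each array (muscle score) as a covariate, added after seeing the data, the medians were -0.09 for complex I, -0.13 for complexes II to V, -0.10 for the TCA cycle and -0.07 for glycolysis. Without that covariate, the median was -0.13 over 29 genes of complex I (25 lower), -0.19 over 18 genes of complexes II to V (16 lower) and -0.19 over 16 TCA cycle genes (13 lower). NDUFA1 and NDUFA2 of complex I differed by -0.41 and -0.06, SDHA and SDHB of complex II by -0.33 and -0.14. The largest difference in complexes II to V was that of COX5A of complex IV (-1.08, adjusted p = 0.0902), and the range in complex I was -0.41 to 0.49. In the TCA cycle, citrate synthase CS differed by -0.27 and aconitase ACO1 by 0.27. Branched-chain amino acid breakdown had a median of -0.19 over 16 genes with BCAT1 at 0.00 and BCAT2 at -0.11, and fatty acid oxidation -0.11 over 23, with the carnitine palmitoyltransferases CPT1A at 0.22 and CPT1B at -0.10. Glycolysis and glucose transport had a median of -0.26 over 15 genes, with the insulin-regulated glucose transporter SLC2A4 at -0.70 and the glucose transporter SLC2A1 at 0.01. The 14 genes of thermogenesis and mitochondrial biogenesis had a median of -0.21, with UCP2 at 0.62 and UCP3 at -0.46.

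In the insulin and IGF axis, 12 of 21 genes were higher in LW with a median of 0.08 and 0 called. INSR, the insulin receptor, differed by -0.22 and its substrate IRS1 by 0.50. IGF2, the imprinted insulin-like growth factor, was examined probe by probe after its values were seen. All 9 IGF2 probes, of 8 sequences in 7 separate stretches, were higher in LW TN than in every Creole TN array, by 0.72 to 1.23, and none was called (adjusted p of 0.0835 to 0.150). The probe that stands for the gene was called with the 11 TN arrays alone (limma, adjusted p = 0.0116), with the 7 arrays alone (0.0338), with array weights (0.0302), and without F1 HS 1 (0.0361) or Creole HS 3 (0.0328). Under HS all 9 were called, with differences of 0.71 to 1.23 (adjusted p of 0.0127 to 0.0287). On the probe that stands for the gene, A_72_P376458, LW TN read 15.51, 15.26, 15.06 and 15.36, and Creole TN 14.32, 14.28 and 13.82. F1 TN read 14.07 to 14.33 on it, below every LW TN array.

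**Figure D4:**
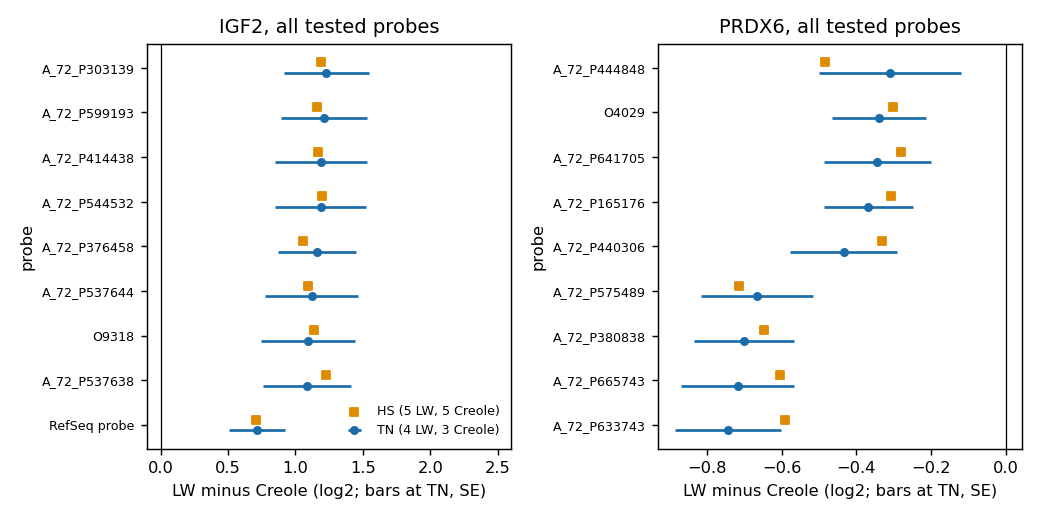
LW minus Creole difference (log2) of every tested IGF2 probe (left) and PRDX6 probe (right), with circles and SE bars at TN (4 LW, 3 Creole) and squares under HS (5 LW, 5 Creole). All 9 IGF2 probes lie between 0.71 and 1.23 at both temperatures, and all 9 PRDX6 probes lie below 0.

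Adipokine, stress and immune lists had 0 called members. ADIPOQ, the adipocyte hormone adiponectin, read 17.30 to 17.51 in LW TN and 17.08 to 17.42 in Creole TN, which overlap (0.14). LEP, leptin, read 8.66 to 10.42 against 10.06 to 12.27, also overlapping (-1.29, adjusted p = 0.317). PPARG, the adipogenic nuclear receptor, differed by -0.06 and CEBPA by -0.16. The median was -0.11 over 27 heat shock genes, with HSPA1L at -0.38 and HSPA2 at -2.26 (adjusted p = 0.181), the latter from 9.30 to 9.88 in LW TN and 10.55, 13.53 and 11.51 in Creole TN. It was 0.03 over 17 genes of the unfolded protein response, with the chaperones HSPA5 at 0.06 and HSP90B1 at -0.03. Over 18 antioxidant enzymes it was -0.08, with the superoxide dismutases SOD1 at 0.03 and SOD2 at 0.32. Over 22 glutathione and xenobiotic enzymes it was also -0.08, with the glutathione transferases GSTA1 at 0.26 and GSTA4 at -0.47.

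Of the immune lists, interferon-response genes had a median of 0.18 over 27 (23 higher), with IFIT1 at 0.26 and IFIT2 at 0.35, and the median was 0.05 with slide as a fixed block. Complement had a median of 0.32 over 18, with the C1q chains C1QA at 0.46 and C1QB at 0.21. Cytokines and chemokines had a median of 0.03 over 26, with IL1B at -0.33 and IL6 at 0.05. Antigen presentation had a median of -0.08 over 22, with the class I genes SLA-1 at -0.01 and SLA-3 at -0.09. None of these lists had a called member.

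Steroid handling had a median of -0.02 over 16, with the cholesterol carrier STAR at 0.41 and the side-chain cleavage enzyme CYP11A1 at -0.15. The circadian clock had a median of -0.12 over 13, with ARNTL at 0.62 and NPAS2 at -0.29. The cell cycle had a median of -0.33 (16 of 18 lower), with MKI67 at 0.02 and TOP2A at -0.65. Cytosolic ribosomal proteins had a median of 0.08 (50 of 66 higher), with RPL3 at 0.19 and RPL4 at 0.11. Adipokines had a median of 0.07 and adipogenic factors of 0.00.

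Markers of other cell types differed between single arrays. All 20 measured skeletal muscle markers were lower in LW TN, with a median of -1.85 and 0 called, of which 14 had an unadjusted p under 0.05. MYH1, a myosin heavy chain of fast fibres, read 8.18, 10.96, 8.43 and 7.57 in LW TN and 12.43, 10.55 and 10.29 in Creole TN. The groups overlap through LW TN 2. ACTA1, the skeletal actin, differed by -0.54. The muscle score, the mean log2 level of the 20 markers minus its mean over the 26 arrays, was -1.27, 0.23, -1.37 and -2.0 in LW TN and 1.42, 0.15 and 0.08 in Creole TN. Summed muscle marker intensity ran from 35437 to 93522 in LW TN and from 84415 to 163389 in Creole TN. The median marker difference under HS was -0.17. With the muscle score as a covariate, added after seeing the data, 40 probes were called in place of 140, and 31 were among the 140. KIT, C1D and VMO1 kept the call, and the other 18 named genes did not, with differences under the covariate at 71.6 to 105% of those without it (median 91.5%). The part of muscle RNA in those 18 differences was not tested further.

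**Figure D5:**
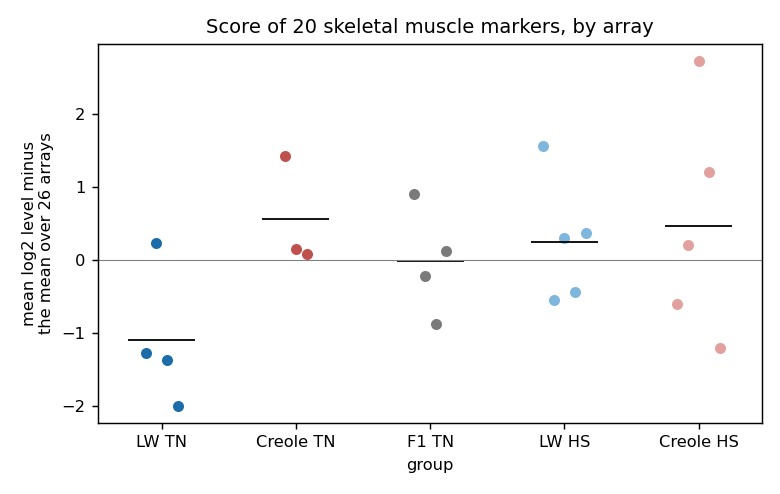
Score of the 20 skeletal muscle markers (mean log2 level minus the mean over the 26 arrays) in each array, by group, with a line at the group mean. LW TN spans -2.0 to 0.23 and Creole TN 0.08 to 1.42, and the HS groups overlap.

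Fibroblast and matrix markers had a median of 0.36 (15 of 18 higher in LW), with COL1A1 at 0.51 and COL1A2 at 0.67, and the median without Creole TN 2 was 0.01. Epithelial markers were higher in 8 of 8 with a median of 0.80, with EPCAM at 1.34 and CDH1 at 0.51, and their score was high in LW TN 1 (0.96) and LW TN 2 (0.85). Keratinocyte markers had a median of 0.50 over 6, with a score of 1.86 in LW TN 1, where KRT5 read 12.34 against 5.20 to 8.53 in the other LW TN arrays, and DSP differed by 1.51 without a call. Macrophage markers had a median of 0.21 over 13, with CD68 at -0.44 and CD163 at 0.62. Nerve and Schwann cell markers had 0.15 over 11, with MBP at 0.15, and endothelial markers -0.08 over 8, with PECAM1 at -0.06 and VWF at 0.04. T cell markers had -0.07 over 9, with CD3D at 0.21 and CD3E at -0.07, and B cell markers 0.02 over 6, with CD79A at 0.27. Red blood cell markers had 0.22 over 4, with HBB at 0.57 and SLC4A1 at -0.25. Adipocyte markers had a median of -0.02 over 15.

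Calls at TN depended on single arrays. Without Creole TN 2, 18 probes were called, of which 15 were among the 140, and 19 of the 21 named genes lost the call, all but C1D and AWN. Without LW TN 3, LW TN 4, Creole TN 3, LW TN 1 or Creole TN 1 the counts were 54, 61, 69, 70 and 77. KIT, GSN, LIPC, VMO1 and C1GALT1 lost the call without Creole TN 2 (adjusted p of 0.0642 to 0.0967) and with no other array left out. Without Creole TN 2 the differences were 1.53 for KIT, 0.68 for GSN, 0.57 for LIPC, -3.42 for VMO1 and -2.79 for C1GALT1. C1D kept the call with each of the 26 arrays left out. PPP3R1, POLR1D and ATPAF1 lost it with any of 20, 20 and 18 of the 26 arrays left out, F1 and HS arrays included. With slide as a fixed block 27 probes were called, 24 of them among the 140, and C1D, GSN and VMO1 alone of the named genes kept the call, while KIT stood at 1.63 (limma, adjusted p = 0.083). Scaling to the 75th percentile of background-subtracted signals moved the differences of low probes by more than 1.5 times, to 2.70 for PDYN, 1.99 for PPGRP-S, 1.38 for LIPC, -5.46 for C1GALT1, -1.75 for PGR, -1.57 for DNAH8 and -1.93 for AWN. LIPC in Creole TN and C1GALT1 in LW TN were at background, so the sizes given here for both are not exact. PDYN, PGR, DNAH8, AWN and LOC100524282 lost the call with that scaling.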

How the data were processed

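Backfat RNA was labelled with Cy3 and hybridised to an Agilent porcine array, 1 pig per array. The authors deposited scanner files of Agilent Feature Extraction 10.10.1.1, per the file headers, holding spot intensity on a linear scale together with flags for signals well above background, and a matrix of log2 values that they had quantile-normalized with preprocessCore. The members compared and the gene lists were chosen with earlier results of these data known.

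The median spot intensity (gMedianSignal) was quantile-normalized over 26 arrays and put on the log2 scale, with spots of a probe averaged, no background correction and control spots left out. A probe was tested (44703 of 60305) if 8 or more arrays had it flagged above background. limma 3.58.1 (R 4.3.3) fitted 6 group means over all 26 arrays with an intensity trend, without a block, and p-values were adjusted by Benjamini-Hochberg at 0.05. Pen, slaughter day, father and mother effects of the study's model were left out, since the labels do not hold them. The arrays lie on slides scanned on 1 day, and 2 slides hold both breeds at TN. Gene names came from the array design, updated through RefSeq accessions and symbols and Ensembl names: 19023 tested probes carry 8879 genes, and a gene is represented by its probe with the highest mean level over the 26 arrays. Named were the 12 largest differences in each direction among called genes with no array of the higher group at background, called members of each list or else its first 2 measured members, and the 5 genes with the smallest p for the gap change. Other genes and probes named were chosen after their values were seen. Some list members that this rule names are not reported here. Where a probe was not well above background on any array of a group, its fold is a bound. In data simulated for the TN comparison over 44703 probes, 26% of 50 shifts of 0.5 were recovered, 88% of shifts of 1, 94% of shifts of 2 and 100% of shifts of 3. The simulated noise was independent for each probe and array, without slide, litter or tissue structure, so these rates hold for such noise only. Alternatives covered scaling, background correction, filters, arrays in the fit, slide, variance model and single arrays; the muscle score was added after seeing the data. The number of arrays limits the precision.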

Additional observations from a re-analysis of the deposited data

Results flagged for a closer look

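The unnamed probe A_72_P123631 was singled out because its LW minus Creole difference was not the same at both temperatures, by a test of the difference itself (limma, adjusted p = 0.00215). The gap under HS minus the gap at TN was -1.19. A single array far from the others was sought in 33 sets of LW TN values, and 0 were found. The Creole TN arrays were not tested in this way, so the result says nothing about them. The dependence of the calls on single Creole TN arrays is given above.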

How the results depend on the processing

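The 140 calls at TN became 27 with slide as a fixed block, 316 with array weights and 40 with the muscle score as a covariate; with each array left out, they ranged from 18 to 223. The HS count of 2526 became 1355 with slide as a fixed block, and 845 to 4681 with an array left out. The single call for the gap change became 2 with array weights and 2 with the muscle score, and 1 to 2 with an array left out. Members of gene lists called at TN were 2 with 75th percentile scaling, 2 with the 11 TN arrays, 2 with the 7 arrays, 4 with array weights, 1 with the muscle score and 1 with the mean of all probes of a gene, and 0 to 2 with an array left out. Probes without overlap, 6688, ranged from 8547 to 11624 with 1 of the 7 compared arrays left out. Smaller groups overlap on fewer probes by construction. Leaving out another array does not alter this count. The cause of the other changes was not tested. With the 11 TN arrays alone 140 probes were called, 69 of them among the 140, and with the 7 arrays alone 105, of which 43. No difference of the named genes changed sign. Over 13 settings, the median of the keratinocyte markers (0.50) ran from 0.21 to 1.05, and that of the macrophage markers (0.21) from 0.10 to 0.32. The median of fatty acid synthesis (-0.32) ran from -0.48 to -0.21, and that of triglyceride synthesis (-0.09) from -0.12 to -0.005. Medians of other lists moved as well. The median of the interferon list (0.18) was 0.05 with slide as a fixed block, and that of the red blood cell markers (0.22) ranged from -0.08 to 0.32. Medians near 0 changed sign in some settings for adipogenic factors, B cell, fatty acid uptake, cholesterol, steroid, cytokine and unfolded protein lists. The median of the muscle markers was 0.06 with the muscle score, by construction, since that score is the mean level of these markers. No pairing by replicate number was possible because the replicate numbers only follow the order of the samples. Slide was used as a block instead, with 2 slides holding both breeds at TN.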
